A study of Mus musculus with 12 samples.

Results

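The genes that define disease-associated microglia, namely Trem2, Tyrobp, Apoe, Cst7, Lpl, Clec7a, Axl, Spp1, Gpnmb and Cd9 (10 genes), were followed through all 3 array comparisons of this series. Every non-control probe whose RefSeq identifier belonged to one of them was taken, which gave 10 probes for 9 of the 10 genes, out of 20887 genes named on the array. No probe was named as Clec7a through the gene table used, and this gene was not analysed here. Lpl had 2 probes, the Apoe probe was spotted 10 times, and no spot of these genes was saturated. A probe counted as expressed where its spot stood well above local background for 1 condition on 3 or 4 arrays of some comparison. By this rule 8 genes were expressed and Cst7 was not.

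The material was neurospheres, floating aggregates of neural progenitor cells, grown from the telencephalon of C57BL/6 mouse embryos (day 13) and differentiated for 7 days. WT embryos were compared with APPswe/PS1dE9 embryos, which carry a chimeric mouse/human APP transgene with the Swedish mutations and a mutant human presenilin 1 transgene, both under the mouse prion protein promoter and serve as a model of familial Alzheimer's disease. Transgenic neurospheres were left untreated (APP_WT) or received 1 µM bradykinin (BK_APP) or 1 µM HOE-140 (HOE_APP) on days 0, 3 and 6 of differentiation. Bradykinin is a peptide agonist of the B2 kinin receptor, and HOE-140 (icatibant) is a peptide antagonist of the same receptor. Both treated groups carried the transgenes and no treated WT group was measured. Each of the 12 2-color arrays held 2 conditions labeled with Cy3 and Cy5, there were 4 arrays per comparison, and the dyes were swapped on 2 of the 4. On the HOE_APP arrays the cell labels do not tell the channels apart (HOE-treated in both on replicates 1 and 2, untreated in both on replicates 3 and 4). The direction was read from the first channel, as on the BK_APP arrays. The log2 ratios deposited by the authors run in this direction on each HOE_APP array (r = 0.999999). This direction is therefore likely, but the channel labels do not make it certain. The methods call the 4 replicates of each comparison independent and biological, without saying whether they differed by embryo, litter or culture, and p-values measure the spread between these arrays.

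Disease-associated microglia are a state that microglia, the resident macrophages of the brain, take up near amyloid plaques, dying cells and damaged myelin. The receptor TREM2 binds lipids, lipoproteins and debris and signals through the adaptor DAP12, the product of Tyrobp. An early, TREM2-independent step raises Tyrobp, Apoe and lysosomal genes and lowers homeostatic genes, and a later, TREM2-dependent step adds genes of lipid handling, phagocytosis and adhesion such as Lpl, Cst7, Axl, Clec7a, Spp1, Gpnmb and Cd9. Several of these genes are not confined to microglia. Astroglia make Apoe in large amounts and also transcribe Lpl and Axl, and Cd9 is found in oligodendrocyte precursors, glia and many other cells.

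Promoter windows are shown for the 4 genes whose window held the PU.1 or AP-1 letters, among them Trem2, Gpnmb and Spp1, which were measured, and Cst7, which was not expressed. RefSeq windows of 300 bases (250 before and 50 after an annotated start, build GRCm38.p6) were at hand for 8 of the 10 genes in 12 windows. In all, 4 motifs were searched on both strands, namely AGGAAGT (the core bound by PU.1, the macrophage lineage factor), TGANTCA (AP-1), CACGTG (the E-box at the core of the lysosomal CLEAR element) and CATGTG (an M-box core of MITF-type factors). None of these motifs contains another, and no matches overlapped in the windows printed. Capitals mark the matches, and the sequences are written 5′ to 3′ on the strand of the gene.

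Trem2, chr17:48346151-48346450, plus strand: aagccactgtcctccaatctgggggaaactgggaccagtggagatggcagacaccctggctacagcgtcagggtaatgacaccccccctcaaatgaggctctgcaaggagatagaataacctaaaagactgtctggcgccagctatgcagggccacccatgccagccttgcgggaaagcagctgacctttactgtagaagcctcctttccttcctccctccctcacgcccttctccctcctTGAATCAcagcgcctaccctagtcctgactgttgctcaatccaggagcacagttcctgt

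Gpnmb, chr6:49036268-49036567, plus strand: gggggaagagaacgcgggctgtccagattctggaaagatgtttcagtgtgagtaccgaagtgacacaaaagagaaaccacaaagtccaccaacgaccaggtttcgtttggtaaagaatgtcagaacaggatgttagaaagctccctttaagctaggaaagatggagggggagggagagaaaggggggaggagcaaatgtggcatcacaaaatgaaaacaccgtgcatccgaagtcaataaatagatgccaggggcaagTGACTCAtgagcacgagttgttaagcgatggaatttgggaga

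Cst7, chr2:150570165-150570464, plus strand: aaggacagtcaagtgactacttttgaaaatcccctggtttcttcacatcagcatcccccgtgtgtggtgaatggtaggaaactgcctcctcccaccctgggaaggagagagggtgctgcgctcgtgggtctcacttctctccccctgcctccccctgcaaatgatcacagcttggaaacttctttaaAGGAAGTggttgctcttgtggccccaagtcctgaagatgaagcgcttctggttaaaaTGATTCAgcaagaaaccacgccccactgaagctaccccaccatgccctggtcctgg

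Spp1, chr5:104434861-104435160, plus strand: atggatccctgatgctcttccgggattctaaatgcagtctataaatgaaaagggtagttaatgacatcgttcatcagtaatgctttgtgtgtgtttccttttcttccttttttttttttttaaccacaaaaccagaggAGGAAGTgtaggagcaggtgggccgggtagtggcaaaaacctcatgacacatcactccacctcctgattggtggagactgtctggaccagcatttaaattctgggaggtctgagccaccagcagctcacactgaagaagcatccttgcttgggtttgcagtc

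The letters TGANTCA were present in the windows of Trem2, Gpnmb and Cst7, close to the annotated start in each, and in 7.81% of all 32851 mouse windows of the same length. The PU.1 letters were present in the windows of Cst7 and of the first Spp1 start, and in 9.35% of all windows. The Cd9 window held CATGTG on the opposite strand, as 14.2% of all windows do on either strand. No match of any of the 4 motifs was present in the windows of Apoe, Axl, Clec7a and the second Spp1 start. The E-box was absent from all 12 windows and present in 7.15% of all windows. These matches describe letters in a short window and show no binding.

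In the comparison of APP_WT with WT neurospheres, which addresses how the transgenic genotype differs before any drug, all 8 expressed genes were higher in APP_WT on all 4 arrays and passed the test. Among all 14330 genes tested, 17% were called higher and 25% were called in either direction (limma, Benjamini-Hochberg adjusted p below 0.05), and 20.8% lay above 0 on all 4 arrays. Tyrobp, Trem2, Gpnmb and Spp1 (4 of the 8) were above background on only 1 of 4 WT arrays. They entered through the transgenic channels, where they were high, so that the count of 8 and the median over them are descriptions only. The changes, p-values, ranks and calls of these 4 genes in this comparison are likewise descriptions only. The median log2 ratio of the 8 genes was 0.70, with a range of 0.47 to 2.22, and that of all genes was 0.015. The receptor Trem2, its adaptor Tyrobp and Gpnmb stood highest, and Lpl, Apoe, Cd9, Spp1 and Axl rose by smaller steps.

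Tyrobp encodes DAP12, the adaptor whose tyrosine motif carries the signal of TREM2 and related receptors. Its log2 ratio of APP_WT over WT was 2.48, 2.11, 2.00 and 2.29 on replicates 1 to 4. The fitted change was 2.22 ± 0.10 (SE, n = 4 arrays), or 4.66-fold with an unadjusted 95% interval of 4.02 to 5.40 (adjusted p = 2.01e-07). The log2 channel intensity was 8.95 ± 0.17 (SD, n = 4) in APP_WT and 6.73 ± 0.23 in WT, and the channels of both conditions did not overlap. WT was well above background on only 1 of the 4 arrays, so that the WT level lay near the lower limit of the measurement. With the processed signals of the scanner software, which add no offset, the log2 change was 3.37 for Tyrobp and 2.83 for Trem2. It was 3.47 for Gpnmb and 1.51 for Spp1. These are the 4 genes with a WT level near background. All 4 stayed past the threshold, which is a description only.

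Trem2 encodes the lipid- and lipoprotein-sensing receptor that pairs with DAP12. Its log2 ratio was 1.91, 1.53, 1.48 and 1.46 on replicates 1 to 4, with replicate 1 standing above the other three. The fitted change was 1.60 ± 0.07 (SE), or 3.03-fold (95% interval 2.70 to 3.39, adjusted p = 2.72e-07). Intensities were 8.30 ± 0.17 (SD, n = 4) in APP_WT, above background on 4 of 4 arrays, and 6.71 ± 0.30 in WT, above background on 1 of 4.

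Gpnmb encodes a glycoprotein of melanosomes and of the lysosomes of phagocytes. Its log2 ratio was 1.47, 1.39, 1.79 and 1.70 on replicates 1 to 4, a narrow range. The fitted change was 1.59 ± 0.05 (SE), or 3.01-fold (95% interval 2.77 to 3.26, adjusted p = 5.44e-08). By p-value it stood at rank 7 of 14330 genes, which is a description only. Gpnmb is also a pigment cell gene. Of the 4 expressed pigment cell markers, none was higher in APP_WT and 1 was lower, and their summed intensity was 807 to 1072 in APP_WT and 893 to 1242 in WT. WT was again above background on only 1 array.

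**Figure D1:**
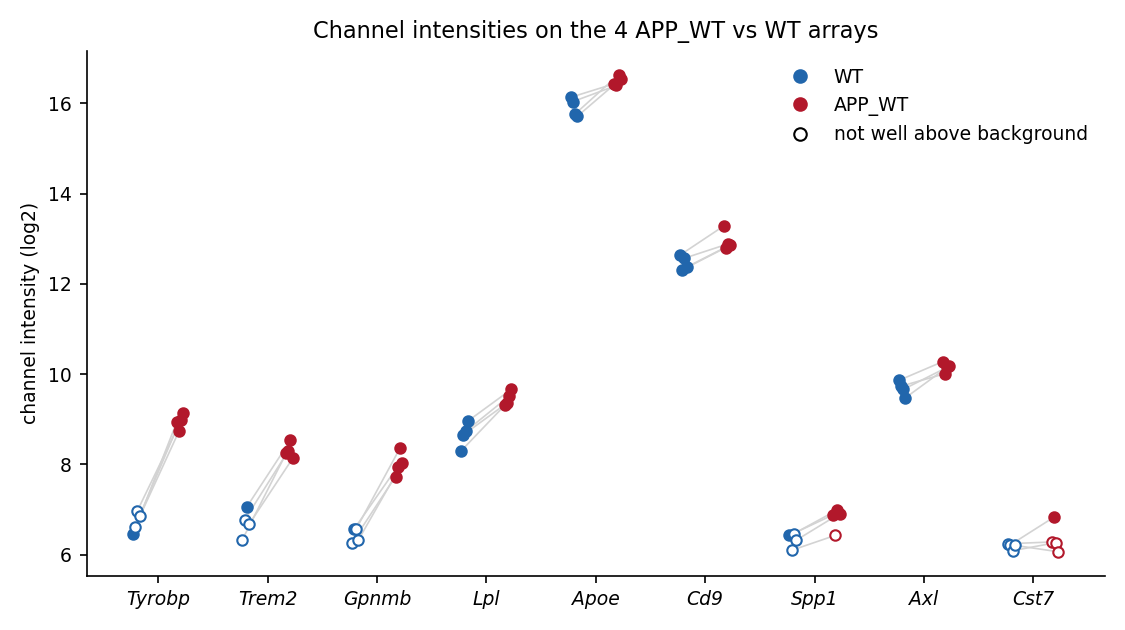
Channel intensities (log2 scale, after loess and quantile scaling of average intensity) of the 9 genes with a probe on the 4 arrays that compared APP_WT (red) with WT (blue). Grey lines join both channels of an array and open circles mark channels not well above background. Tyrobp, Trem2 and Gpnmb rise from near background, Apoe, Cd9, Axl and Lpl are measured in both conditions, and Cst7 is open on all but 1 array. Heights of different probes are not comparable with each other.

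Lipoprotein lipase (Lpl) hydrolyses triglycerides of lipoproteins and is produced by astroglia as well as by activated microglia. The brighter probe gave 1.01, 0.71, 0.78 and 0.71 on replicates 1 to 4, a fitted 0.80 ± 0.06 (SE), or 1.74-fold (95% interval 1.60 to 1.90, adjusted p = 4.62e-06). The dimmer probe gave 0.32, 0.23, 0.50 and 0.40, a fitted 0.36 ± 0.06 (adjusted p = 0.00127). Both probes rose on every array, and their sizes differed, 1.74-fold against 1.29-fold.

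Apoe encodes the main lipid carrier of the brain, which astroglia make in quantity and microglia raise on activation. Its ratio was 0.30 and 0.36 on replicates 1 and 2, where APP_WT carried Cy3, and 0.88 and 0.83 on replicates 3 and 4, where it carried Cy5. The fitted change with the dye as a coefficient was 0.59 ± 0.05 (SE), or 1.51-fold (95% interval 1.39 to 1.63, adjusted p = 2.04e-05). The dye coefficient of 0.26 ± 0.05 was large beside it, and both orientations gave a higher level in APP_WT, by 0.33 with Cy3 and 0.85 with Cy5. With median centering in place of loess the change was 0.37 (adjusted p = 0.00846).

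The tetraspanin Cd9, which organises adhesion and fusion complexes at the cell surface, gave 0.64, 0.50, 0.32 and 0.49 on replicates 1 to 4, a fitted 0.49 ± 0.07 (SE), or 1.40-fold (adjusted p = 0.000952). With median centering of each array in place of loess the change of Cd9 was 0.32 and missed the threshold (adjusted p = 0.0501). Osteopontin (Spp1), a secreted integrin and CD44 ligand, gave 0.46, 0.33, 0.53 and 0.59, a fitted 0.48 ± 0.06 or 1.39-fold (adjusted p = 0.00028). Its intensity of 6.81 ± 0.25 (SD, n = 4) in APP_WT was close to background and was above it on 3 arrays, against 1 array in WT. Axl, a receptor tyrosine kinase that recognises apoptotic cells through GAS6 and is also made by astroglia, gave 0.41, 0.28, 0.49 and 0.71, a fitted 0.47 ± 0.06 or 1.39-fold (adjusted p = 0.000252).

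Cst7 encodes cystatin F, an inhibitor of lysosomal cysteine cathepsins. Its probe was well above background in 1 channel of all 12 arrays, that of APP_WT on replicate 2 of this comparison. The ratios were 0.04, 0.62, 0.18 and -0.14 and went in both directions. The gene entered no test, and a difference in Cst7 was not detectable at this signal.

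Microglial markers moved with these genes. Of 12 expressed microglial markers, 11 were higher in APP_WT and none lower, at a median log2 ratio of 1.25. Laptm5, Ptprc and Tmem119 (3 of the 12) were above background on at most 1 WT array. The count, the median and the Ptprc value are therefore descriptions only. Their summed intensity was 13740 to 17920 in APP_WT and 9715 to 11899 in WT. The fractalkine receptor Cx3cr1 was higher by 2.31 ± 0.07 (SE, adjusted p = 2.14e-08), the Fc receptor γ chain gene Fcer1g by 2.23 ± 0.09 (adjusted p = 1.29e-07) and the leukocyte phosphatase gene Ptprc by 0.36 ± 0.07 (adjusted p = 0.00461). The purinergic receptor gene P2ry12 and the macrophage lineage factor gene Spi1, both on this marker list, were not expressed above background. Laptm5 was above background on no WT array. Both expressed markers of border macrophages and blood myeloid cells were higher, Ms4a7 at least 4.38-fold because no WT channel was above background, and Pf4 by 0.83 ± 0.12. Pf4 was above background on at most 1 WT array, so that both values are descriptions only. The other 7 markers of that list with a probe, among them Mrc1, Cd163 and Ccr2, were not expressed. Their part in the rise of the disease-associated genes was not tested, and more cells of a type and more RNA per cell cannot be told apart from these arrays.

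Astroglial markers also moved, which matters for Apoe, Lpl and Axl. Of 10 expressed markers 7 were higher in APP_WT and none lower, with a median of 0.28, which was 0.0984 with median centering of each array in place of loess. The water channel gene Aqp4 was higher by 0.73 ± 0.08 (SE, adjusted p = 8.74e-05), the filament gene Gfap by 0.69 ± 0.07 (adjusted p = 0.000109) and S100b by 0.23 ± 0.07 (adjusted p = 0.0445). The summed intensity of the list was 193844 to 206702 in APP_WT and 147507 to 185154 in WT. Apoe, Lpl and Axl rose by 0.59, 0.80 and 0.47, against a range of -0.17 to 0.73 for the astroglial markers, and the part of astroglia in them was not tested. Among neuronal markers 1 of 8 was higher and 3 were lower, among oligodendrocyte lineage markers 1 of 9 was higher and 1 lower, and among endothelial, pericyte and fibroblast markers none of 7 was higher and 3 were lower.

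Lists of the early and later steps of the disease-associated programme are given as descriptions, since 2 of 8 early and 5 of 20 later genes were above background on at most 1 WT array. APP_WT was above WT for all 8 genes of the early step, which include Tyrobp and Apoe, at a median log2 ratio of 0.82. The MHC class I light chain gene B2m was higher by 1.46 ± 0.11 (SE, adjusted p = 9.92e-06), the lysosomal protease gene Ctsb by 0.96 ± 0.06 (adjusted p = 2.1e-06) and the protease inhibitor gene Timp2 by 0.49 ± 0.09 (adjusted p = 0.00584). Of 20 expressed genes of the later step, which include 6 of the genes described here, 15 were higher and 2 lower. The surface glycopeptide gene Cd52 was higher by 2.60 ± 0.10 (adjusted p = 1.27e-07), the inhibitory receptor gene Lilrb4a at least 3.35-fold, with no WT channel above background, and the lipid chaperone gene Fabp5 fell by 0.29 (adjusted p = 0.0144).

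Homeostatic microglial genes did not fall as a group. Of 11 expressed genes 6 were higher in APP_WT, among them Cx3cr1 and Fcrls, an Fc receptor-like gene that was higher by 1.16 ± 0.07 (SE, adjusted p = 1.92e-06). The 1 gene that fell was the transcription factor gene Sall1, by 0.30 (adjusted p = 0.00307), a gene that neural progenitors also express. P2ry12, P2ry13 and Gpr34 were not expressed. Tmem119, 1 of the 11 expressed genes, was above background on at most 1 WT array.

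**Figure D2:**
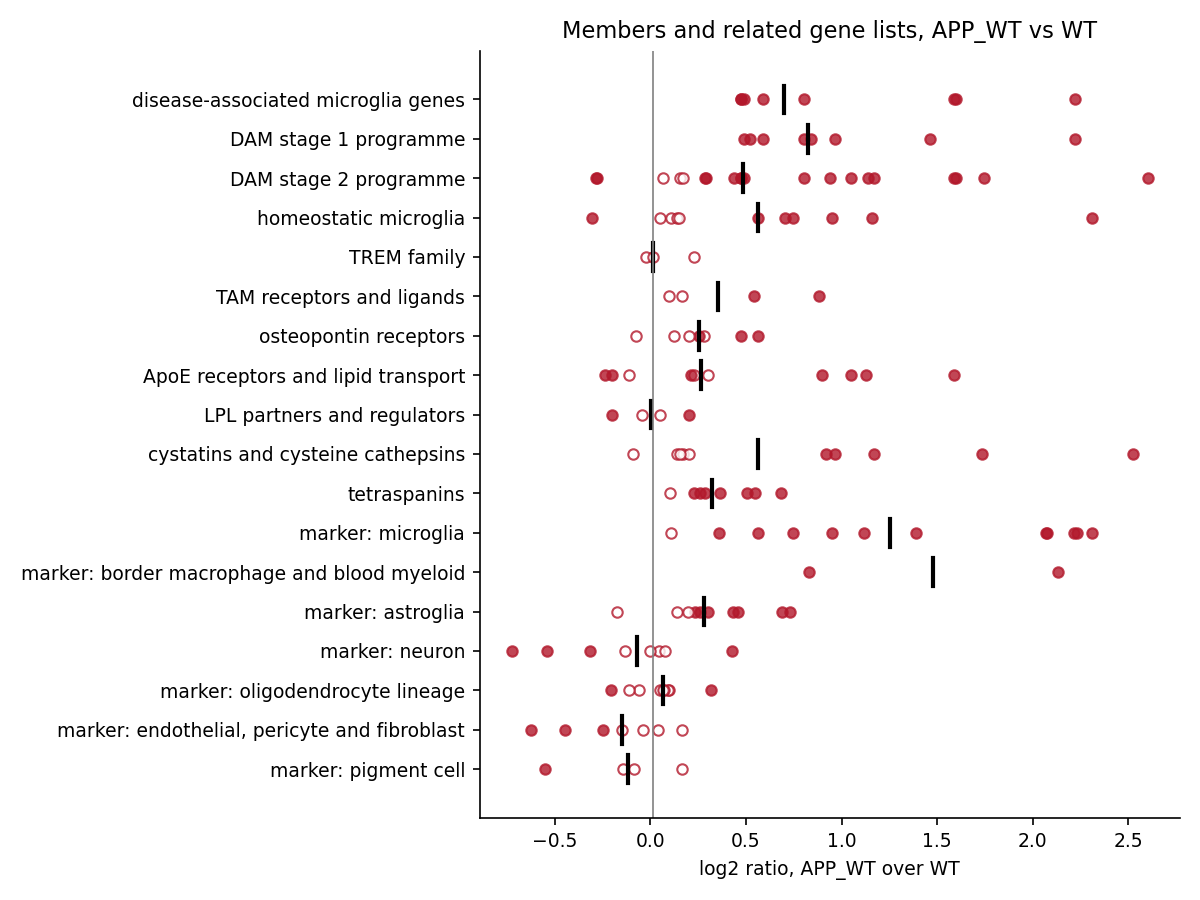
Log2 ratio of APP_WT over WT (x axis) for each expressed gene of the disease-associated set and of related lists (rows). Filled points have an adjusted p below 0.05, black bars are list medians and the grey line is the median of all 14330 genes. The disease-associated genes are all filled and lie between 0.47 and 2.22, microglial markers lie mostly above 0.3, and neuronal markers lie on both sides of 0.

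Partners of the same pathways moved unevenly. Of 15 signalling genes downstream of TREM2 and DAP12 with a probe, 11 were expressed. Of these, 9 were not called and none was lower, and the list median was -0.022 against 0.015 for all genes. That median leaves out the genes not expressed, and the arrays do not resolve which cells made the others. The phosphatase gene Inpp5d was higher by 1.02 ± 0.16 (SE, adjusted p = 0.00153). None of the 3 expressed relatives of Trem2 (Trem1, Treml1 and Treml4) was called by limma or had an unadjusted p below 0.05. Gas6, the ligand of AXL, was higher by 0.54 ± 0.05 (adjusted p = 5.67e-05), and Pros1, whose product protein S activates the sister receptors TYRO3 and MERTK, by 0.88 ± 0.08 (adjusted p = 4.11e-05), while the receptor genes Tyro3 and Mertk were not called. Of 7 expressed osteopontin receptors 3 were higher, Cd44 by 0.56 ± 0.06 (adjusted p = 7.98e-05), Itgb5 by 0.48 ± 0.07 (adjusted p = 0.00116) and Itgb1 by 0.25 ± 0.08 (adjusted p = 0.0407).

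Of 10 expressed genes of ApoE receptors and lipid transport 5 were higher and 2 lower. The cholesterol exporter gene Abcg1 was higher by 1.59 ± 0.07 (SE, adjusted p = 2.99e-07) and Apoc1, the neighbour of Apoe in the same gene cluster, by 1.13 ± 0.06 (adjusted p = 4.46e-07), whereas the receptor gene Vldlr fell by 0.20 (adjusted p = 0.0413). Among partners of lipoprotein lipase, the maturation factor gene Lmf1 was higher by 0.20 ± 0.06 (adjusted p = 0.039) and Vldlr was the 1 that fell. Of 10 cystatin and cathepsin genes 5 were higher and none lower, from Ctss (2.52 ± 0.09, adjusted p = 5.44e-08) and Ctsh (1.73 ± 0.08) as the highest to Ctsc (0.92 ± 0.10) as the lowest called. Ctss was above background on at most 1 WT array, so that its value and its place in the list are descriptions only. Of 8 tetraspanins related to CD9, 7 were higher, among them Cd53 (at least 1.46-fold, with APP_WT above background on 2 arrays and WT on none), Cd151 (0.55 ± 0.06, adjusted p = 8.3e-05) and Cd81 (0.23 ± 0.07, adjusted p = 0.037).

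In the comparison of BK_APP with APP_WT, which addresses what kinin receptor stimulation changes in transgenic neurospheres, no gene of the set passed the limma test, and 0% of all 14329 genes did. An unadjusted p below 0.05 was found for 3 of the 8 genes (Gpnmb, Tyrobp and Trem2, all higher in BK_APP), against 4.79% of all genes tested and 2.63% in the higher direction. The median log2 ratio of the 8 genes was 0.11 and that of all genes 0.00075. The SAM and rank product rule of the methods (both unadjusted p at or below 0.05) called the same 3 genes, and 2.41% of all probes. The study itself had picked Trem2 and Tyrobp on these arrays, so that their position here is not independent evidence.

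Gpnmb gave log2 ratios of 0.29, 0.49, 0.35 and 0.28 on replicates 1 to 4, above 0 on every array. The fitted change was 0.35 ± 0.05 (SE), or 1.27-fold (95% interval 1.17 to 1.38, unadjusted p = 5.27e-05, adjusted p = 0.967 in the limma model). It had the smallest p-value of all 14329 genes in this comparison. Log2 intensities ran from 8.04 to 8.62 in BK_APP and from 7.76 to 8.27 in APP_WT, so that the conditions overlapped between arrays and were separated within each array.

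Tyrobp gave 0.15, 0.37, 0.44 and 0.32, a fitted 0.32 ± 0.10 (SE), or 1.25-fold (95% interval 1.08 to 1.45, limma unadjusted p = 0.00727, adjusted p = 0.967). Its intensity was 9.33 ± 0.17 (SD, n = 4) in BK_APP and 9.01 ± 0.06 in APP_WT, and the lowest BK_APP channel (9.08) lay just above the highest APP_WT channel (9.07). Trem2 gave 0.19, 0.48, 0.09 and 0.12, with replicate 2 above the others (the fitted value was 0.145 without it and 0.347 with processed signals), and a fitted 0.22 ± 0.07, or 1.16-fold (95% interval 1.04 to 1.30, limma unadjusted p = 0.0132, adjusted p = 0.967). Receptor and adaptor were thus above 0 on 4 of 4 arrays each, as were 5.75% of all genes.

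The remaining genes lay closer to 0. Spp1 gave 0.13, 0.32, 0.08 and -0.02 and a fitted 0.13 ± 0.06 (SE, limma unadjusted p = 0.0535), which was 0.083 without replicate 2 and 0.456 with processed signals. Cd9 gave -0.05, 0.20, 0.19 and 0.01 and a fitted 0.09 ± 0.07, which ran from 0.026 to 0.151 with 1 replicate left out and was 0.181 with median centering. Axl had a fitted -0.02 (95% interval -0.15 to 0.11) and the brighter Lpl probe -0.08 (-0.20 to 0.04), with ratios of -0.15, -0.17, 0.01 and -0.02 for Lpl. The intervals of Axl and Lpl leave out changes of the size seen between APP_WT and WT.

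Apoe split by dye here. Its ratio was 0.34 and 0.28 on replicates 1 and 2, where BK_APP carried Cy5, and -0.49 and -0.34 on replicates 3 and 4, where it carried Cy3. The dye coefficient was 0.36 ± 0.05 (SE), larger than the fitted change of -0.05 (95% interval -0.17 to 0.06). The orientations thus gave opposite signs, 0.31 against -0.42, which cancel in the fitted mean since each was used on 2 arrays. The interval spans 0 and leaves out a change of the size seen between APP_WT and WT.

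**Figure D3:**
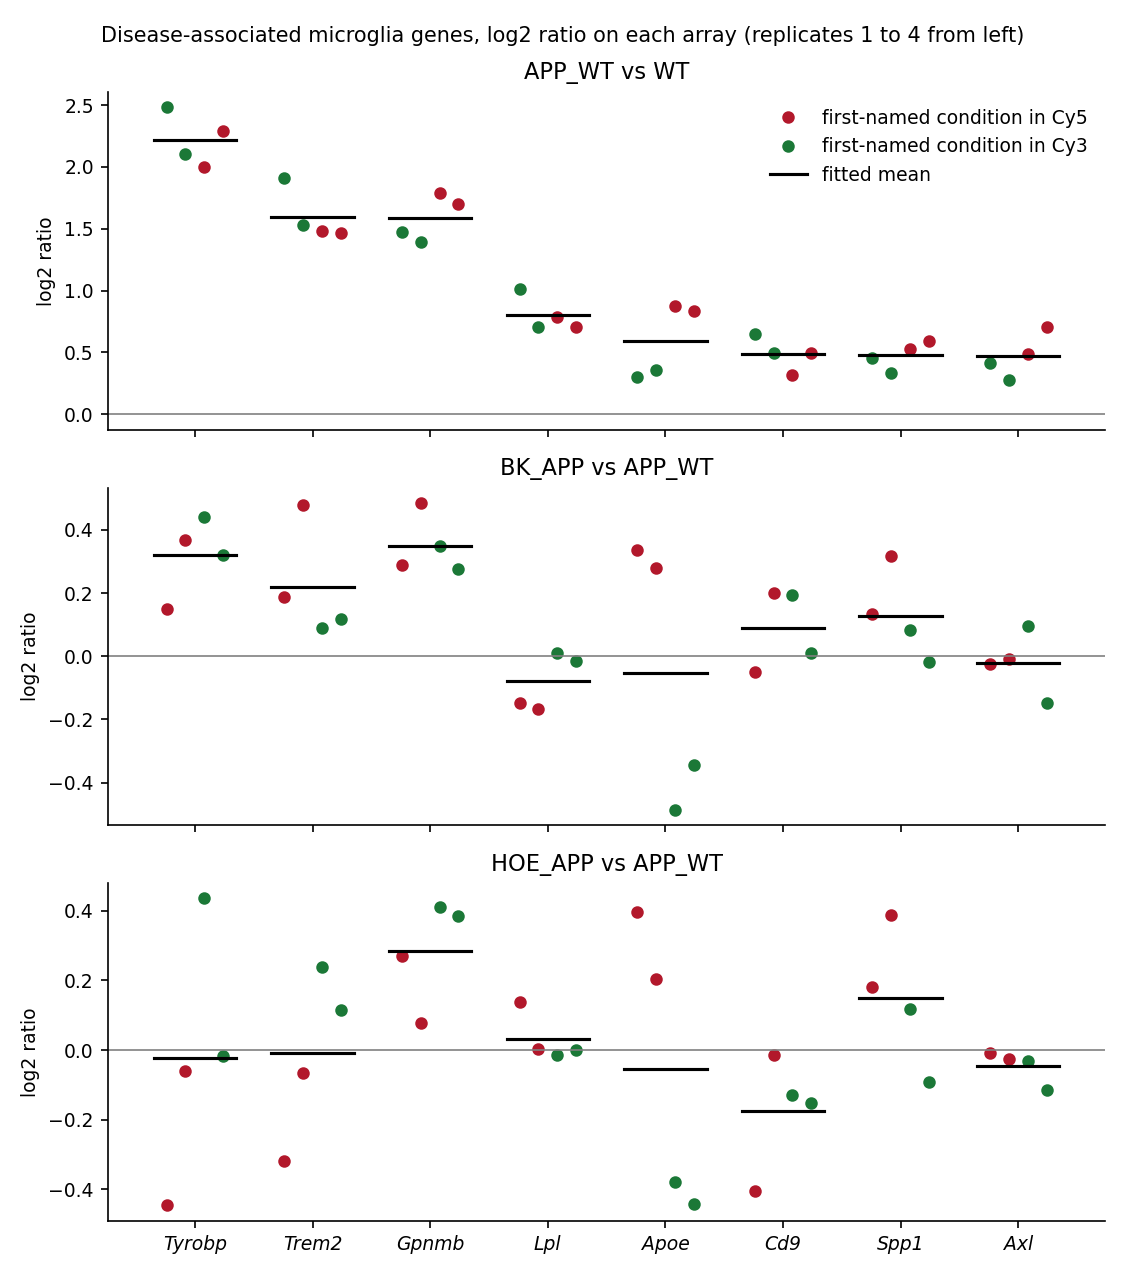
Log2 ratio (y axis, each panel on its own scale) of the 8 expressed genes on each array in the 3 comparisons, replicates 1 to 4 from left to right. Red points had the first-named condition in Cy5, green points in Cy3, and black bars are fitted means. Every point lies above 0 in the APP_WT versus WT panel, Gpnmb lies above 0 in all 3 panels, and Apoe splits by dye in both treatment panels.

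HOE_APP against APP_WT addresses what blocking the B2 receptor changes. No gene of the set passed the limma test, 0% of all 14330 genes did, and 3 of 8 genes had an unadjusted p below 0.05 (Gpnmb and Spp1 higher, Cd9 lower) against 4.91% of all genes. The median log2 ratio was -0.014, and that of all genes 0.0043. The SAM and rank product rule called 2 genes, Gpnmb and Cd9, and 2.96% of all probes. The direction was taken from the first-channel labels, and the deposited log2 ratios run the same way (r = 0.999999 on each array). Every sign in this comparison turns if that direction is wrong.

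Gpnmb was again above APP_WT on 4 of 4 arrays, at 0.27, 0.08, 0.41 and 0.39. The fitted change was 0.29 ± 0.05 (SE), or 1.22-fold (95% interval 1.12 to 1.32, limma unadjusted p = 0.000283, adjusted p = 0.924), rank 5 of 14330 genes by p-value. Being above 0 on every array was shared by 6.22% of all genes. This comparison and that of BK_APP share untreated APP_WT as denominator, and their values are set side by side here without a test of their likeness. The log2 intensity of Gpnmb in APP_WT was 7.76 to 8.27 on the BK_APP arrays, 7.94 to 8.43 on the HOE_APP arrays and 7.73 to 8.36 on the arrays with WT, and in HOE_APP it was 8.14 to 8.84.

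Cd9 was below APP_WT on 4 of 4 arrays, at -0.41, -0.02, -0.13 and -0.15, with replicate 1 the lowest. Without replicate 1 the fitted value was -0.078, without replicate 2 it was -0.273, and with median centering it was -0.035. The fitted change was -0.18 ± 0.07 (SE, 95% interval -0.34 to -0.01, limma unadjusted p = 0.0359, adjusted p = 0.924), and 4.21% of all genes lay below 0 on all 4 arrays. Spp1 gave 0.18, 0.39, 0.12 and -0.09, a fitted 0.15 ± 0.06 (limma unadjusted p = 0.0297, adjusted p = 0.924), at an intensity close to background. Its value was 0.096 without replicate 3, 0.097 without replicate 2 and 0.46 with processed signals.

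Tyrobp and Trem2 had no common direction under HOE-140. Tyrobp gave -0.45, -0.06, 0.44 and -0.02, the widest range of the 8 genes in this comparison, and a fitted -0.02 ± 0.10 (SE, 95% interval -0.23 to 0.19). Trem2 gave -0.32, -0.07, 0.24 and 0.12, a fitted -0.01 ± 0.07 (95% interval -0.17 to 0.16). In both genes the arrays with HOE_APP in Cy5 lay below those with HOE_APP in Cy3, at means of -0.25 and 0.21 for Tyrobp and -0.19 and 0.18 for Trem2. Axl lay just below 0 on all 4 arrays, with a fitted -0.04 (95% interval -0.17 to 0.08) that turned to 0.073 with median centering, and the brighter Lpl probe had a fitted 0.03 (-0.09 to 0.15). Apoe was split by dye as before, at 0.40, 0.20, -0.38 and -0.44, with a fitted -0.06 (-0.17 to 0.06).

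The difference between agonist and antagonist was tested directly as BK_APP minus HOE_APP in the same model, over 8 genes at the matched dose of 1 µM. This test held no replicate block, so that its errors and intervals treat the arrays of both treatments as unpaired. With a replicate block the SE was 0.058 for Cd9, 0.091 for Tyrobp and 0.12 for Trem2. In the unpaired fit none of the 8 genes passed after adjustment, with an adjusted p of 1 for each, and 0% of all genes did. Tyrobp and Cd9, 2 of the 8, had an unadjusted p below 0.05, against 2.96% of all genes. Tyrobp was higher under bradykinin by 0.34 ± 0.14 (SE, 95% interval 0.04 to 0.64, limma unadjusted p = 0.0302) and Cd9 by 0.26 ± 0.10 (0.04 to 0.49, unadjusted p = 0.0275). The difference for Trem2 was 0.23 ± 0.10 with an interval of -0.0044 to 0.45 (unadjusted p = 0.0537), and 0.363 with processed signals. Gpnmb differed by 0.06 (-0.10 to 0.23), Spp1 by -0.02 (-0.21 to 0.17), Axl by 0.02 (-0.16 to 0.20), Apoe by 0.0016 (-0.16 to 0.16) and Lpl by -0.11 (-0.29 to 0.06), so that differences of up to about these bounds in either direction remain possible if the direction of HOE_APP is as taken here. The deposited log2 ratios run in the direction taken here. With it turned round, the difference would be 0.64 for Gpnmb (limma adjusted p = 0.164) and 0.28 for Spp1, both outside these intervals, and -0.087 for Cd9.

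**Figure D4:**
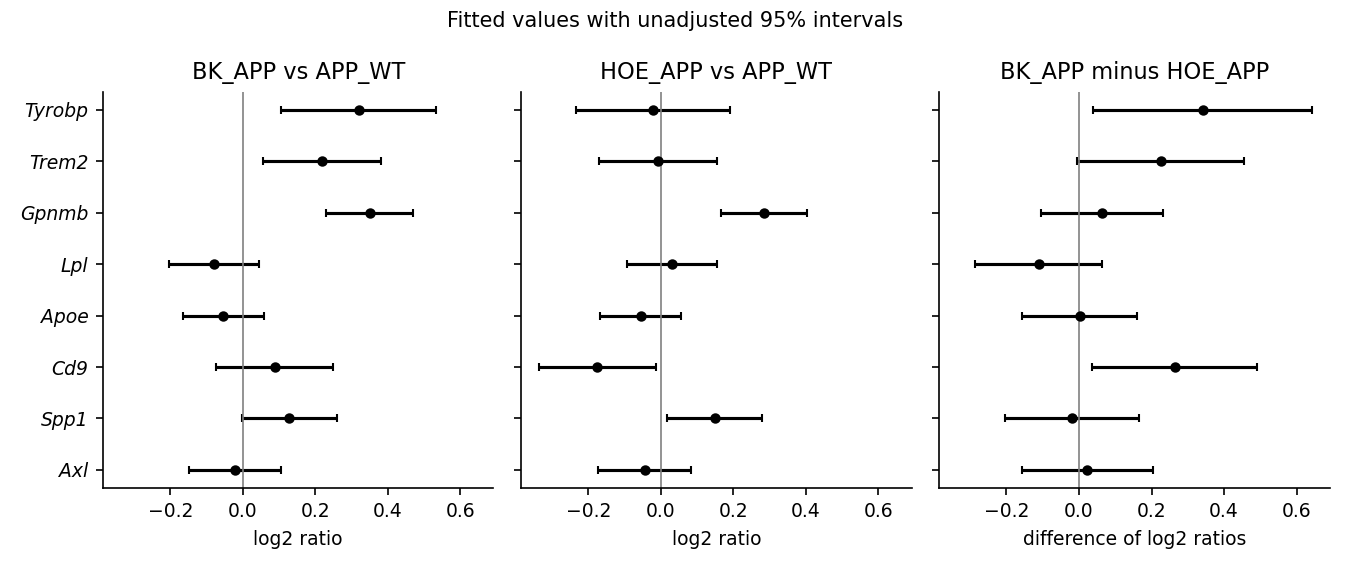
Fitted log2 ratios for BK_APP over APP_WT and HOE_APP over APP_WT, and their difference, for the 8 expressed genes (rows), each with its unadjusted 95% interval from the limma model over 12 arrays. The interval of Gpnmb lies above 0 in both treatment panels but spans 0 in the difference, and Tyrobp and Cd9 have intervals above 0 in the difference. None of these values passes after adjustment over all probes.

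Marker lists under treatment give the setting of these values. In BK_APP 8 of 12 microglial markers lay above 0, with a median log2 ratio of 0.086, and in HOE_APP all 12 lay below 0, with a median of -0.10, while the difference between treatments was above 0 for 12 of 12. With the HOE_APP direction turned, all 12 would lie above 0 in HOE_APP and 4 of 12 in the difference. No marker passed the limma test in any of these 3 fits, and 3, 2 and 3 of the 12 had an unadjusted p below 0.05. The shares of all genes in BK_APP, HOE_APP and the difference were 4.79%, 4.91% and 2.96%. The summed microglial intensity was 14908 to 16632 in BK_APP against 13285 to 17217 in APP_WT on the same arrays, and 11289 to 15267 in HOE_APP against 13039 to 17601. Cx3cr1 was at 0.17 ± 0.07 (SE) in BK_APP and -0.18 ± 0.07 in HOE_APP, and Cd52 at 0.16 ± 0.10 and -0.31 ± 0.10. The study itself had picked Cx3cr1 on both sets of arrays, so that its values are not independent evidence. The astroglial markers had medians of -0.046 in BK_APP and -0.11 in HOE_APP. In HOE_APP 10 of 10 lay below 0, or 10 of 10 above 0 (median 0.107) with its direction turned. With median centering in place of loess, which shifts the median of all genes to 0.097 in HOE_APP, 7 of the 12 microglial and 2 of the 10 astroglial markers lay below 0, and 12 and 9 lay below that median. Of 8 neuronal markers none lay above 0 in BK_APP (median -0.106) or in the difference (median -0.105), where 2 each had an unadjusted p below 0.05 and none was called, and with median centering none lay above the median of all genes in either. With the HOE_APP direction turned, 1 of these 8 would lie above 0 in the difference (median -0.102). The part of these cells in the values of Tyrobp, Trem2 and Cd9 was not tested.

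In HOE_APP the ratio of Gpnmb was positive where the microglial markers were not. The 4 pigment cell markers had medians of 0.012 in BK_APP and -0.033 in HOE_APP with none called. Of the genes of the later step, 16 of 20 lay above 0 in BK_APP and 7 of 20 in HOE_APP, with medians of 0.063 and -0.040, and Gpnmb was the highest of the list in both. With the HOE_APP direction turned, 13 of 20 would lie above 0 there and Gpnmb would be the lowest. With median centering 19 and 16 of the 20 lay above 0, and 16 and 6 above the median of all genes. Lilrb4a was at 0.28 ± 0.05 (SE) in BK_APP and -0.03 ± 0.05 in HOE_APP, with a difference of 0.31 (limma unadjusted p = 0.00147, adjusted p = 1). The study itself had picked this gene on the BK_APP arrays, so that its values are not independent evidence. The osteopontin receptor Cd44 was at -0.05 ± 0.06 and -0.26 ± 0.06. No list had a gene called by limma under either treatment. In the later step 5 of 20 genes in BK_APP and 7 of 20 in HOE_APP had a limma unadjusted p below 0.05. The shares of all genes were 4.79% and 4.91%, and no other list had as many such genes.

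Over all arrays, between 50.02% and 59.40% of probes were well above background. Ratios of arrays with the same dye orientation correlated across probes at 0.24 to 0.61, and those of opposite orientation at -0.11 to -0.32 in BK_APP and HOE_APP and at 0.24 to 0.46 in APP_WT versus WT. The 4 arrays with WT were on 1 slide and the 8 treated arrays on another. Slide therefore cannot be told apart from APP_WT versus WT set against the treated comparisons, while BK_APP and HOE_APP arrays shared a slide. Both channels of a ratio came from 1 array.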

How the data were processed

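Each array held 2 conditions labeled from 100 ng of total RNA, 12 arrays in all. The authors deposited scanner output (Feature Extraction 11.0.1.1 and build mm9 per the file headers), with median spot and background intensity in each channel, not normalized, and processed intensity after background subtraction and dye normalization. They also deposited a table of log2 ratios, whose columns followed the processed log2 ratios at r = 0.999999 or above in the direction used here. Its normalization is not given in the sources used here. The header version differs from that in the methods.

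With limma 3.58.1 (R 4.3.3), median intensities were background corrected (normexp, offset 50), ratios were normalized by loess (span 0.3) without control or uneven spots, spots of a probe were averaged, and ratios were turned to the first-named condition. Mean spot signals were not used here. Of 55681 probes 29361 were expressed, and of 29150 with a RefSeq identifier 27509 were named through a RefSeq table of another build, used for names only. A gene was represented by its brightest probe. One model over 12 arrays had a mean and a dye coefficient per comparison (6 residual and 4.56 prior degrees of freedom). Tests were two-sided, with Benjamini-Hochberg adjustment over all expressed probes and 0.05 as threshold. Each p printed for a gene is from this limma model unless SAM and rank products are named. A fold is a lower bound ("at least") where 1 condition was above background on no array. Such a bound is taken from means over the arrays and makes no allowance for the spread between them. The script was tested on simulated data. Figures and motif searches used Python 3.11.15 and matplotlib 3.10.9. The number of arrays limits the precision.

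Same-numbered BK_APP and HOE_APP arrays deviated together (r = 0.67, 0.56, 0.67 and 0.52, and 0.42 to 0.43 with the dye removed), so the numbers were taken to pair these arrays, on the data alone. The main model ignored this pairing, and a replicate block was used only as an alternative for the difference between treatments. Alternatives covered background, normalization, filter, dye term, separate fits, probe choice, the deposited ratios, the tests of the methods, left-out replicates, the replicate block and the sign of HOE_APP. Named genes are all members and, from each list, the 2 highest and the lowest called genes with 1 sign on 4 arrays in APP_WT versus WT, as well as marker genes whose absence or bound is stated. The members and lists were chosen with earlier results of these data known. One gene of the signalling list is not reported here.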

Additional observations from a re-analysis of the deposited data

Results flagged for a closer look

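On the 4 arrays of APP_WT versus WT, Trem2 had a log2 ratio of 1.91 on replicate 1, far from the other 3 arrays, which lay between 1.46 and 1.53. Without replicate 1 the fitted change was 1.502 and was still called. In HOE_APP versus APP_WT, the brighter Lpl probe had a log2 ratio of 0.14 on replicate 1, while the others lay between -0.015 and 0.0020, and without that array the fitted value was -0.0031. In all, 8 genes were looked at in 3 comparisons of 4 arrays, and chance alone sets about 1 in 20 such groups apart in this way.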

How the results depend on the processing

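In APP_WT versus WT all 8 genes kept their direction and their call in every alternative that tested them, except Cd9 with median centering. For Tyrobp, Trem2, Gpnmb and Spp1, with a WT level near background, this is a description only. Spp1 was not tested where all 4 arrays had to be above background. Separate fits of each comparison called 2371 of all probes against 5446, and leaving out 1 replicate gave 3772 to 5545. SAM and rank products called 702 probes and 3 of the genes in BK_APP, and 867 probes and 2 of the genes in HOE_APP, where limma called none. Leaving out 1 replicate gave 0 to 62 called probes in BK_APP (62 without replicate 1, where Gpnmb reached an adjusted p of 0.0535), 0 to 9 in HOE_APP (9 without replicate 4) and 0 to 2 in the difference, and never a gene of the set. With the replicate block in the difference between treatments no gene was called either (Cd9 0.26, unadjusted p = 0.0017, and Tyrobp 0.34, unadjusted p = 0.00525), so pairing changed no call. Values near 0 changed sign in several alternatives, and the cause was not tested. With median centering Apoe was 0.061, 0.11 and -0.049 in BK_APP, HOE_APP and their difference, Axl 0.050, 0.073 and -0.023, and Trem2 and Tyrobp 0.055 and 0.061 in HOE_APP. The Apoe difference was -0.016 with processed signals, -0.0075 with scaling between arrays and -0.013 with the deposited ratios, which gave Tyrobp 0 in HOE_APP, and Trem2 in HOE_APP was 0.0049 without background subtraction. Leaving out 1 replicate gave in HOE_APP -0.0031 to 0.065 for Lpl, -0.070 to 0.056 for Trem2 and -0.13 to 0.091 for Tyrobp, in BK_APP -0.083 to 0.039 for Axl, and in the difference -0.049 to 0.052 for Apoe, -0.034 to 0.16 for Gpnmb, -0.018 to 0.063 for Axl and -0.048 to 0.0076 for Spp1. With the HOE_APP direction turned round, HOE_APP read 0.055 for Apoe, 0.045 for Axl, 0.18 for Cd9, -0.29 for Gpnmb, -0.031 for Lpl, -0.15 for Spp1, 0.0072 for Trem2 and 0.021 for Tyrobp, and the difference -0.11 for Apoe, -0.066 for Axl, -0.087 for Cd9, 0.28 for Spp1, 0.64 for Gpnmb (adjusted p = 0.164), -0.049 for Lpl, 0.21 for Trem2 and 0.30 for Tyrobp, with none called. Signal limits Cst7, Spp1 and the WT levels of Tyrobp, Trem2 and Gpnmb, which lie near background.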
